A study of Oryctolagus cuniculus with 24 samples.

Results

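The effect of DSS on lamina propria mononuclear cells (LPMC) was measured in New Zealand White rabbits that had all been treated with ova of the pig whipworm Trichuris suis (TSO). The comparison set 3 LPMC libraries of TSO DSS rabbits against 3 LPMC libraries of TSO Water rabbits, chosen by their sample labels, and these were 6 of the 24 RNAseq libraries of the study. Every rabbit of both groups had received 3 intragastric doses of 2500 ova. TSO DSS rabbits then drank 0.1% dextran sodium sulphate (DSS) in fennel tea for 5 days from day 26, whereas TSO Water rabbits drank the tea without DSS. Caeca were taken at day 35, so that the TSO DSS libraries describe the mucosa some days after the end of DSS. The comparison groups were Veh DSS and Veh Water rabbits, which had received vehicle in place of ova, and the intestinal epithelial cells (IEC) of the same TSO rabbits.

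The lamina propria is the connective tissue under the gut epithelium, and its mononuclear cells are mostly lymphocytes, plasma cells, macrophages and dendritic cells. DSS damages the epithelium and lets luminal content reach these cells, which is why it is widely used as a model of colitis. Whipworm ova hatch in the large intestine and are known to draw type 2 immune responses, with eosinophils and alternatively activated macrophages. The LPMC fraction was what collagenase and a density gradient released from the tissue left after removal of the epithelium, with the muscle layer still attached, so that other cells of that tissue could enter it. In such bulk samples, fewer cells of a type and less RNA per cell cannot be told apart. The deposited tables pair the Ensembl identifiers with no gene symbol, so that the markers of lymphocytes, macrophages, muscle or epithelium could not be checked by name, and the genes are described by identifier, chromosome and list.

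The depth of the libraries was unequal. By reads recovered from the deposited signal, the TSO DSS libraries held 8281568, 13831170 and 3685531 reads (rabbits 1, 2 and 3), and the TSO Water libraries 14498968, 10697870 and 12631688. TSO DSS 3 was the smallest of the 24 libraries. When all LPMC libraries were thinned to its size, 10836, 11044 and 10550 genes had a read in TSO DSS and 11150, 11327 and 11216 in TSO Water, so the TSO DSS libraries held fewer genes at equal depth, without overlap. TSO Water 2 came from the only rabbit of the 6 that was kept in room B. Across 10191 genes, the mean Pearson's correlation was 0.891 among TSO DSS libraries, 0.942 among TSO Water libraries and 0.866 between the groups. TSO DSS 1 and TSO DSS 3 were nearest to each other (0.927), whereas the nearest library of TSO DSS 2 was Veh DSS 2 (0.952). These correlations are across genes, which are not independent replicates.

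Most genes called with DSS in LPMC of TSO rabbits were lower. Of 10013 genes tested, 396 were lower (3.95%) and 17 higher (0.17%) in TSO DSS in comparison to TSO Water, or 413 in all (4.12%). The median log2 fold change over all genes tested was -0.00093, which the scaling of the libraries sets near 0, so that changes are relative to the bulk of the genes. Calls were made by limma on log2 of the scaled reads plus 1, where a gene had to pass 0.05 after Benjamini-Hochberg adjustment and to change by more than 1 on the log2 scale. Scaled reads are reads divided by a factor that sets the libraries of a comparison to a common size, and fold changes on this scale understate the change of low genes. At an unadjusted p-value, 980 genes were lower (9.79%) and 139 higher (1.39%). The number of higher genes depended on the test, with 87 in the likelihood ratio test of edgeR and 94 in DESeq2, beside 773 and 746 lower genes. All 413 called genes had groups without overlap, as did 24.3% of all genes tested.

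**Figure D1:**
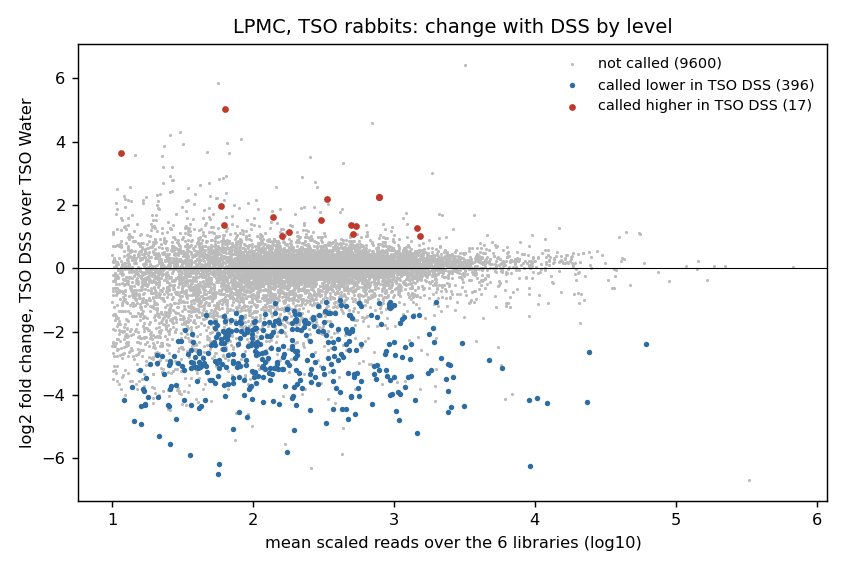
Each point is 1 of the 10013 tested genes in LPMC of TSO rabbits, with the mean of scaled reads over the 6 libraries on the horizontal axis (log10) and the log2 fold change of TSO DSS over TSO Water on the vertical axis. The 396 called lower genes (blue) spread over nearly the whole range of levels, and the 17 called higher genes (red) lie above 1.

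The falls were large. The median log2 fold change of the 396 lower genes was -2.82 (quartiles -3.46 and -2.0, range -6.51 to -1.0), and 298, 170 and 58 of them were past a fall of 2, 3 and 4 on the log2 scale. Their median level was 249 scaled reads in TSO Water and 40.2 in TSO DSS. The falls were found at all levels, in 4.79%, 4.95%, 3.16% and 2.92% of the genes from the lowest to the highest of 4 equal bins of level. They were also spread over the genome: lower genes made up 0.592% (chromosome 6) to 6.42% (chromosome 8) of the genes tested on each nuclear chromosome, and 0 of the 26 mitochondrial genes tested.

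The size of the falls varied between the TSO DSS rabbits. As the 396 genes were called on these 6 libraries and their groups do not overlap, each TSO DSS library had to lie below the TSO Water libraries, and the values of single libraries are a description. Relative to the TSO Water mean, the lower genes had a median log2 difference of -2.88 in TSO DSS 1, -2.41 in TSO DSS 2 and -2.92 in TSO DSS 3. Single TSO Water libraries lay near the other two, at -0.24, -0.0039 and 0.27 for rabbits 1, 2 and 3. TSO DSS 2 was the mildest, and it was the TSO DSS library nearest to TSO Water for 218 of the 396 genes, against 82 for TSO DSS 1 and 96 for TSO DSS 3. In reads thinned to equal depth, the median was -2.63 over the 369 of them that passed the filter on low levels.

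The number of called genes rested on single libraries. It was 102 without TSO DSS 1, 1083 without TSO DSS 2 (144 higher and 939 lower) and 411 without TSO DSS 3, of which 319 were among the 413. It was 83 without TSO Water 1, 18 without TSO Water 2 (room A rabbits only) and 21 without TSO Water 3. With TSO DSS 3 and TSO Water 2 left out together, limma called 0 genes (lowest adjusted p = 0.0553), with 993 at an unadjusted p-value. Whether the room played a part was not tested, and room B held only 1 rabbit of the 6.

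Genes chosen without a library were then read in that library. The 101 genes called lower without TSO DSS 1 had a median log2 difference of -3.60 between TSO DSS 1 and the TSO Water mean, and all 101 lay below 0. The 396 genes called lower without TSO DSS 3, the smallest library, lay at -2.93 in TSO DSS 3, with 387 below 0. The 939 genes called lower without TSO DSS 2 moved less in that rabbit: of the 938 that could be read, 730 lay below 0, and the median was -1.55, against -2.61 in the fit that chose them. Over all genes tested, the medians of TSO DSS 1, 2 and 3 were 0.015, 0.025 and -0.045. The TSO Water libraries took part in the choice, so that these values are not independent of them.

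Values of 0 in the tables need care. In the 6 libraries, 8 tested genes were listed at 0 in 1 library and at 100 reads or more in each of the other 5. Among these was a mitochondrial gene with 89881 to 826330 reads in 5 libraries and 0 in TSO DSS 2, so that 0 may stand for a value that was not estimated. This touched few of the called genes: 374 of the 396 lower genes had a read in each TSO DSS library, and their median log2 fold change was -2.74, whereas 22 were listed at 0 in at least 1 of them. Of these 22, only 2 had 10 reads or more in another TSO DSS library. At most 3 reads in every TSO DSS library were found for 13 lower genes, 4 of which had none, and with these 13 set to the bound that 3 reads per library allow, the median of the 396 was -2.81.

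The largest fitted falls among the genes that could be named were those of ENSOCUG00000008813 on chromosome 8 and ENSOCUG00000001394 on chromosome 12, and their order depended on the setting. ENSOCUG00000008813 was at -6.51 and ENSOCUG00000001394 at -6.26 on the log2 scale, but at -3.53 and -6.19 with a pseudocount of 10, and at -5.38 and -6.25 in thinned reads. ENSOCUG00000008813 was low in level. It had 122, 106 and 202 reads in TSO Water 1, 2 and 3, but was listed at 0, 1 and 0 reads in TSO DSS 1, 2 and 3. The log2 fold change was -6.51 ± 0.56 (SE, n = 3 per group; limma, adjusted p = 0.00547). With 1 read in the TSO DSS group the fold is poorly bounded: summed reads relative to depth were 293-fold higher in TSO Water, with an exact 95% interval of 52.4 to 11609 that covers counting error only. In LPMC of rabbits without ova the change did not pass the threshold (limma, log2 fold change -1.56, adjusted p = 0.615). Veh Water held 11.1 ± 0.91 RPM (reads of a gene per 1000000 reads of the library) and Veh DSS 8.90 ± 12.2 RPM (SD, n = 3), where Veh DSS 1 was at 23.0, Veh DSS 2 at 0.761 and Veh DSS 3 at 2.98. In IEC of the TSO rabbits the gene stood at 0.0642, 0.607 and 0.0569 RPM in TSO DSS and at 1.30, 5.94 and 3.45 in TSO Water, which did not overlap but missed the threshold (limma, log2 fold change -3.88, adjusted p = 0.135).

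ENSOCUG00000001394 was an abundant gene in TSO Water. It had 45910, 12288 and 15421 reads in TSO Water 1, 2 and 3, and 355, 243 and 50 in TSO DSS 1, 2 and 3. In scaled reads, it was 18134 ± 11506 in TSO Water and 239 ± 159 in TSO DSS (SD, n = 3), a log2 fold change of -6.26 ± 0.56 (SE; limma, adjusted p = 0.0063). Summed reads relative to depth were 77.5-fold higher in TSO Water (exact 95% interval 71.7 to 83.8, counting error only). The level of this gene varied widely between rabbits without ova: it was 802, 27.2 and 302 RPM in Veh Water 1, 2 and 3, and 924, 18.3 and 816 in Veh DSS 1, 2 and 3. The low levels of the TSO DSS libraries, 42.9, 17.6 and 13.6 RPM, were thus also met in 1 rabbit of each of the Veh groups. In IEC of the TSO rabbits the gene was 69.0, 24.2 and 2.96 RPM in TSO DSS and 590, 135 and 283 in TSO Water, again without overlap and short of the threshold (limma, log2 fold change -4.05, adjusted p = 0.145).

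The 17 higher genes changed less than the lower genes. Their median log2 fold change was 1.54 (range 1.02 to 5.04), with 6 past 2 and 2 past 3, and 1.84, 1.44 and 1.56 in TSO DSS 1, 2 and 3. Of the 17, 3 identifiers on chromosome 19 shared their reads in all 24 libraries, within 1 read or 0.1%, so that the 17 genes were 15 distinct sets of reads. The 2 higher genes with the largest changes that could be named also lie on chromosome 19 and include this set. ENSOCUG00000018026, which stands for the 3 identifiers with the same reads, had 1017, 1019 and 769 reads in TSO DSS 1, 2 and 3 and 295, 407 and 271 in TSO Water 1, 2 and 3. In scaled reads, it was 1302 ± 663 in TSO DSS and 259 ± 89.2 in TSO Water (SD, n = 3), with a log2 fold change of 2.25 ± 0.42 (SE; limma, adjusted p = 0.0379). The highest of the 6 values was that of the smallest library, TSO DSS 3, at 2007 scaled reads.

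ENSOCUG00000018769 had 450, 421 and 328 reads in TSO DSS 1, 2 and 3 and 151, 173 and 106 in TSO Water 1, 2 and 3. It was 559 ± 286 scaled reads in TSO DSS and 113 ± 36.3 in TSO Water, a log2 fold change of 2.20 ± 0.43 (SE, n = 3; limma, adjusted p = 0.0438). Its reads were 33.7% to 51.7% of those of ENSOCUG00000018026 in all 24 libraries, so that the 2 genes may share reads and are not counted as separate evidence. The libraries were not stranded, and reads of a gene that overlaps another on the opposite strand cannot be told apart from it. In LPMC without ova, ENSOCUG00000018026 was 21.6 ± 15.2 RPM in Veh Water and 56.6 ± 15.0 in Veh DSS, and in IEC of TSO rabbits 12.3 ± 4.42 in TSO Water and 35.4 ± 13.1 in TSO DSS (SD, n = 3). The log2 fold changes of this gene were 1.53 in both of these comparisons, with adjusted p-values of 0.354 and 0.0986 in limma, so that both lay short of the threshold. Each of the 4 named genes lost its call when TSO Water 2 or TSO Water 3 was left out, and the 2 higher genes also without TSO DSS 1, TSO DSS 3 or TSO Water 1, with adjusted p-values in limma between 0.0514 and 0.182 over these fits.

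**Figure D2:**
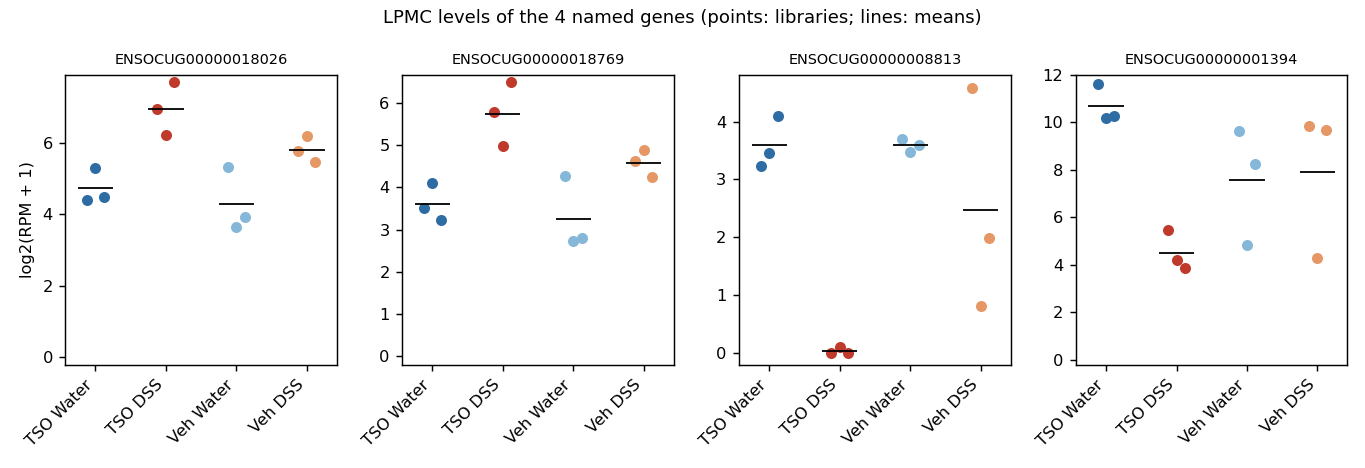
Points give the log2 of RPM plus 1 in each of the 12 LPMC libraries for the 4 named genes, and lines give the means of the 3 libraries of a group. The TSO DSS points (red) lie above all TSO Water points for the 2 genes on the left and below them for the 2 on the right, and Veh DSS 2 (middle of the orange points) is low for both genes on the right.

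To see how far the change depended on ova, the same genes were read in Veh DSS and Veh Water rabbits, whose libraries were not used in the first comparison. DSS without ova called 3 of 10305 LPMC genes (0.0291%), 1 higher (0.0097%) and 2 lower (0.0194%), in limma, and 204 higher (1.98%) and 296 lower (2.87%) at an unadjusted p-value. This count depended on the test and on single libraries: the likelihood ratio test of edgeR called 131 higher and 87 lower genes, DESeq2 137 and 99, and limma without Veh DSS 1 26 and 5, whereas limma called 0 without Veh DSS 2, Veh DSS 3 or Veh Water 2, 1 without Veh Water 3 and 13 without Veh Water 1. The 396 lower genes of TSO rabbits were mostly below 0 here too. Their median log2 fold change was -0.99, beside 0.019 over all genes tested, with 392 below 0 and 4 above. None of them was called, but 124 (31.3%) were lower at an unadjusted p-value, against the 2.87% of all genes. These 124 had a median of -3.14 in TSO rabbits, and the remaining 272 a median of -2.57 in TSO rabbits and -0.81 in Veh rabbits. Relative to the TSO Water mean, the 396 genes lay at a median of -0.46, -1.81 and -0.65 in Veh DSS 1, 2 and 3 and of 0.49, 0.11 and -0.33 in Veh Water 1, 2 and 3. Veh DSS 2 therefore stood closest to the TSO DSS libraries, and the other Veh DSS libraries closer to the controls.

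**Figure D3:**
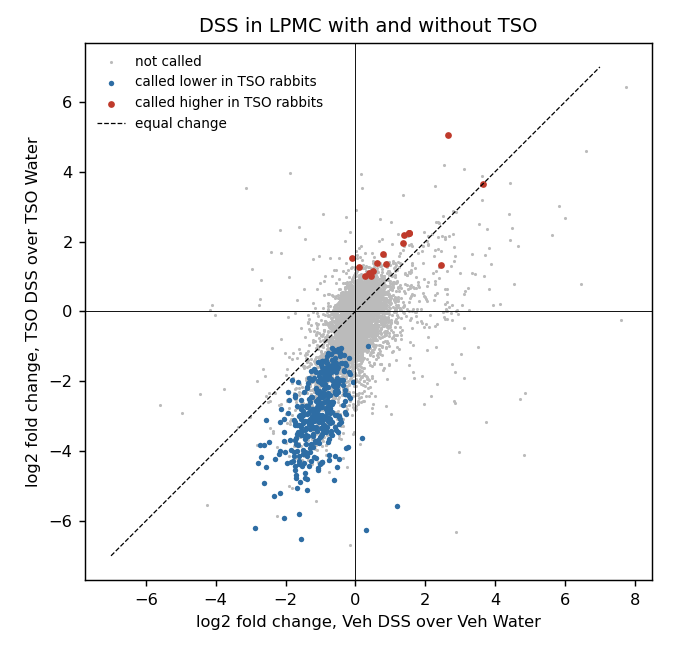
Each point is a gene tested in both LPMC comparisons, with the log2 fold change of DSS without ova on the horizontal axis and with ova on the vertical axis, and the dashed line marks equal change. The called lower genes of TSO rabbits (blue) lie mostly left of 0 and below the line, with a median of -0.99 on the horizontal and -2.82 on the vertical axis.

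Read in the other direction, genes that were lower in Veh DSS at an unadjusted p-value also had a negative median in TSO rabbits. The 296 lower genes had a median of -1.45 in the Veh comparison in which they were chosen, at -1.12, -2.05 and -1.13 in Veh DSS 1, 2 and 3. In TSO rabbits, the 269 of them that were tested lay at a median of -2.82 on the log2 scale, at -2.86, -2.43 and -3.08 in TSO DSS 1, 2 and 3, and 266 were below 0. In TSO rabbits 124 of the 269 were called lower (46.1%, against 3.95% of all genes tested). At an unadjusted p-value 230 were lower in both comparisons, which was 85.5% of those tested from the Veh list, against 9.79% of all genes tested, and 23.5% of the 980 genes of the TSO list. Of the 204 genes that were higher in Veh DSS, 201 were tested in TSO rabbits, with a median of 0.70, 158 were above 0, 7 were called higher (3.48%, against 0.17%), and 52 were higher at an unadjusted p-value in both, or 25.9% of those tested from the Veh list, against 1.39% of all genes tested, and 37.4% of the 139 genes of the TSO list. Across 9938 genes, the log2 fold changes of both comparisons correlated with r = 0.569, where genes are not independent replicates.

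The difference between the effects of DSS with and without ova was tested by the interaction term of limma over all 12 LPMC libraries. No gene of 10191 passed the threshold (lowest adjusted p = 0.127), whereas 716 (7.03%) had an unadjusted p-value under 0.05, 578 of them (5.67%) with the more negative effect in TSO rabbits. The quasi-likelihood test of edgeR also called 0 genes, the likelihood ratio test 52, all with the more negative effect in TSO rabbits, and DESeq2 68, of which 64 had the more negative effect there. In limma, the count was 21 without TSO DSS 2, 32 without Veh DSS 2 and 2 without Veh DSS 1. All of the 396 lower genes had a negative interaction, with a median of -1.70, and 246 of them at an unadjusted p-value, but they were chosen on libraries that are in this term. Whether single genes fell further in TSO rabbits thus depended on the test and on single libraries.

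In the IEC of the same rabbits, most genes called with DSS were higher. Of 10175 genes tested, 209 were higher (2.05%) and 4 lower (0.0393%) in TSO DSS, or 213 in all (2.09%). The count was 23 without IEC TSO DSS 1, 141 without IEC TSO DSS 2, 109 without IEC TSO Water 2, 123 without IEC TSO Water 3 and 10 with the spread of all 12 IEC libraries, and most of the calls were higher in each of these fits. The genes that had fallen in LPMC were not lower in IEC as a group: their median log2 fold change there was -0.09 over the 363 genes tested, with 168 above and 195 below 0, and 4 called higher and 1 lower. The rabbits differed, with a median in IEC of -0.49, 1.34 and -0.75 in TSO DSS 1, 2 and 3 relative to the TSO Water mean. The falls in LPMC were mildest in TSO DSS 2, and the IEC library of the same number was the only one with these genes above the controls. That both came from the same rabbit was taken from the shared number. The 570 genes that were higher in IEC at an unadjusted p-value were spread on both sides of 0 in LPMC: 544 were tested there, with 226 above and 318 below 0, a median of -0.23, 6 called higher (1.1%, against 0.17% of all genes tested) and 26 called lower (4.78%, against 3.95%). The 91 genes that were lower in IEC at an unadjusted p-value were mostly below 0 in LPMC: 75 were tested there, with 62 below 0, a median of -1.52 and 15 called lower (20%, against 3.95% of all genes tested). Across 9692 genes, the log2 fold changes of LPMC and IEC correlated with r = 0.175, where genes are not independent replicates and both fractions came from the same rabbits. Of the 17 higher genes, 16 were tested in IEC, with a median of 0.12, and 1 was called higher.

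The difference between the cell types was tested directly. By the interaction term of limma, the effect of DSS differed between LPMC and IEC for 347 of 10238 genes (3.39%), and it was more negative in LPMC for 328 (3.2%) and more positive for 19 (0.186%). Of the 395 lower genes that entered, 99 were called, all with the more negative effect in LPMC, and 4 of the 16 higher genes that entered were called with the more positive effect in LPMC. These members were chosen on the LPMC libraries of the term. With the libraries scaled by their total reads alone, 232 genes were called, all with the more negative effect in LPMC. The calls with the more positive effect thus depended on the scaling. Room A rabbits alone gave 198 genes. Leaving out 1 library gave 177 to 497, of which 211, 183 and 177 were without LPMC TSO DSS 1, LPMC TSO Water 1 and LPMC TSO Water 3, and 227, 224 and 215 without IEC TSO DSS 1, IEC TSO DSS 2 and IEC TSO Water 3. With the rabbit, taken from the shared number of LPMC and IEC libraries, as a block, 324 genes were called.

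**Figure D4:**
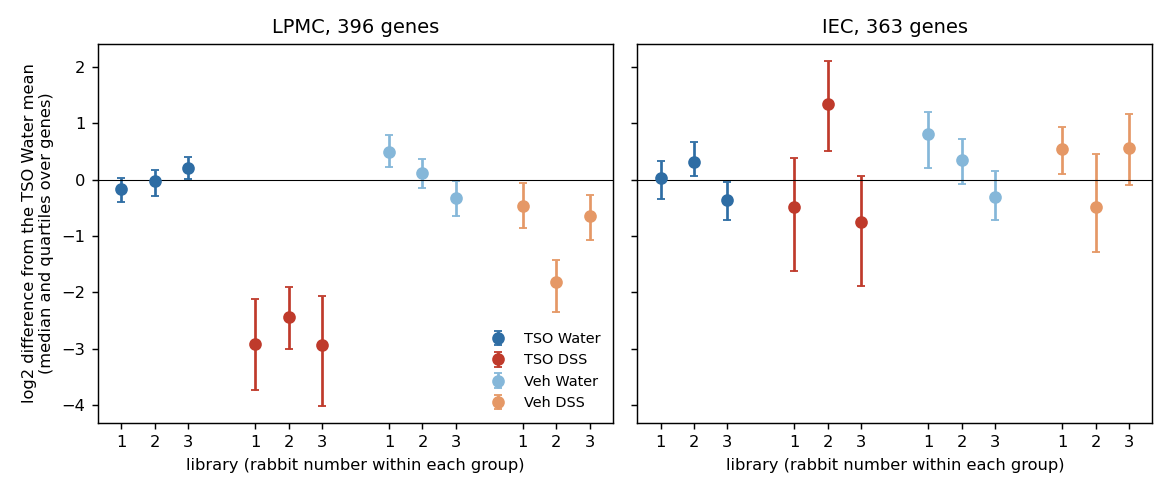
Points are medians and bars quartiles, over the genes called lower in LPMC of TSO DSS, of the log2 difference from the TSO Water mean of the same cell type, in LPMC (396 genes) and IEC (363 genes), for rabbits 1 to 3 of each group. In LPMC, the TSO DSS medians lie between -2.43 and -2.93 and Veh DSS 2 at -1.81, and in IEC the TSO DSS medians lie on both sides of 0. Each gene is compared with its own TSO Water mean here, with all 12 libraries of a cell type scaled together.

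As no cell type markers could be named, genes that differed between LPMC and IEC of Veh Water rabbits, which are in neither group compared, served as lists. LPMC-enriched genes were at least 3 higher on the log2 scale in LPMC, and epithelium-enriched genes at least 3 higher in IEC, both without overlap between the libraries. Of the 525 LPMC-enriched genes, 492 were tested, and 133 were called lower in TSO DSS (27%), against 2.76% of the other genes. None was called higher. Their median log2 fold change was -2.0 (quartiles -3.09 and -0.53), beside 0.015 for the other genes, with 414 below 0 and 78 above. The list was also below 0 with DSS in rabbits without ova, with a median of -0.90 over 524 genes, beside 0.030 for the other genes, and 434 were below 0, but none was called. As the list was set on Veh Water libraries, which are the controls of that comparison, its value there is not independent of the choice. The medians in TSO DSS 1, 2 and 3 were -1.90, -1.84 and -1.89, so that these medians differed little. The summed level of the list did differ between these rabbits and was lowest in TSO DSS 2, as given below. LPMC-enriched genes made up 33.6% of the lower genes and 4.91% of all genes tested.

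The size of the fall and the share of called genes differed with level within the LPMC-enriched list. The median log2 fold change was -2.0, -2.09, -2.14 and -1.51 from the lowest to the highest of 4 equal bins of level, and 12.2%, 20.3%, 37.4% and 38.2% of the genes of these bins were called lower. The 20 most abundant genes, which held 76.4% of the reads of the list in TSO Water, had a median of -0.57, and 7 of them were called lower, against 3.95% of all genes tested. The summed level of the list was 146310, 53937 and 140070 RPM in TSO DSS 1, 2 and 3 and 94006, 126360 and 138270 in TSO Water 1, 2 and 3, and the groups overlapped. TSO DSS 2 alone was below all TSO Water libraries. The means were 113440 ± 51625 RPM in TSO DSS and 119540 ± 22904 in TSO Water (SD, n = 3), and without TSO DSS 2 or TSO Water 3 the difference turned above 0.

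This sum rested on 1 gene. ENSOCUG00000027219 on chromosome 15, singled out after its values were seen as the most abundant gene of the list in Veh Water, held 47.8% to 69.2% of the sum. It was 101210, 31010 and 95227 RPM in TSO DSS 1, 2 and 3 and 44970, 72045 and 78336 in TSO Water 1, 2 and 3, so that the groups overlapped (limma, log2 fold change 0.054, adjusted p = 0.986). Without this gene, the list summed to 45098, 22927 and 44841 RPM in TSO DSS 1, 2 and 3 and to 49036, 54311 and 59932 in TSO Water 1, 2 and 3. The TSO DSS libraries then lay below all TSO Water libraries, with means of 37622 ± 12727 and 54426 ± 5449 RPM (SD, n = 3). TSO DSS 2 lay far below the other TSO DSS libraries. The reads of ENSOCUG00000027219 stayed in the library total, so that its high level in TSO DSS 1 and TSO DSS 3 lowers the RPM of the other genes there.

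The same list lay above 0 in the IEC fraction of the TSO DSS rabbits. As these genes are low in IEC, only 332 of the 525 passed the filter on low levels there, 68 of them with a TSO Water mean under the minimum of 10 scaled reads, so that the values over these 332 are no measure of the list: their median log2 fold change was 1.28, and 55 were called higher and none lower. Without the filter, 519 of the 525 had a read in IEC, with a median of 0.96, beside -0.0097 for the other genes, and 418 were above and 101 below 0. Of the 519 genes, 54 were called higher (10.4%, against 1.21% of the other genes) and none lower. Without the filter, the medians were 0.93, 1.83 and 0.33 in TSO DSS 1, 2 and 3. The summed level of the list in IEC was 19884, 20715 and 6842 RPM in TSO DSS 1, 2 and 3 and 5081, 6354 and 3547 in TSO Water 1, 2 and 3, and the groups did not overlap, with or without ENSOCUG00000027219. Without the filter, the median was -2.01 over all 525 genes in LPMC and 0.96 over 519 in IEC of the TSO rabbits. In rabbits without ova, the list summed in IEC to 6358, 32338 and 12801 RPM in Veh DSS 1, 2 and 3. Veh Water 1, 2 and 3 held 6453.5, 4904 and 5099 RPM, so that these groups overlapped. As the list was set on Veh Water libraries, these values are not independent of the choice. Whether cells of the lamina propria were shared differently between the fractions was not tested.

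Epithelium-enriched genes were at low levels in LPMC, and their median lay above 0 in TSO DSS 1 and TSO DSS 2 but not in TSO DSS 3. Of 132 such genes, 60 passed the filter on low levels, 9 of them with a TSO Water mean under the minimum, and 44 had no read in the 6 libraries. The 60 genes had a median log2 fold change of 0.71, with 46 above 0 and 14 below, which is a description of those that passed. Over the 88 genes with a read, the median was 0.69, with 62 above and 26 below 0, and 2 were called higher (2.27%, against 0.118% of the other genes) and 1 lower (1.14%, against 3.59%). The median of those that passed was 0.30 without TSO DSS 2 and 1.03 without TSO DSS 3. The median over the 88 genes was 0.68 in TSO DSS 1 and 1.14 in TSO DSS 2, but -0.18 in TSO DSS 3. Their summed level was 972, 1627 and 851 RPM in TSO DSS 1, 2 and 3 and 764, 975 and 863 in TSO Water 1, 2 and 3, so that the groups overlapped and only TSO DSS 2 stood clearly above. In IEC libraries of the TSO rabbits the same list summed to 7085 to 28657 RPM. The part of epithelial RNA in the changes of LPMC was not tested.

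**Figure D5:**
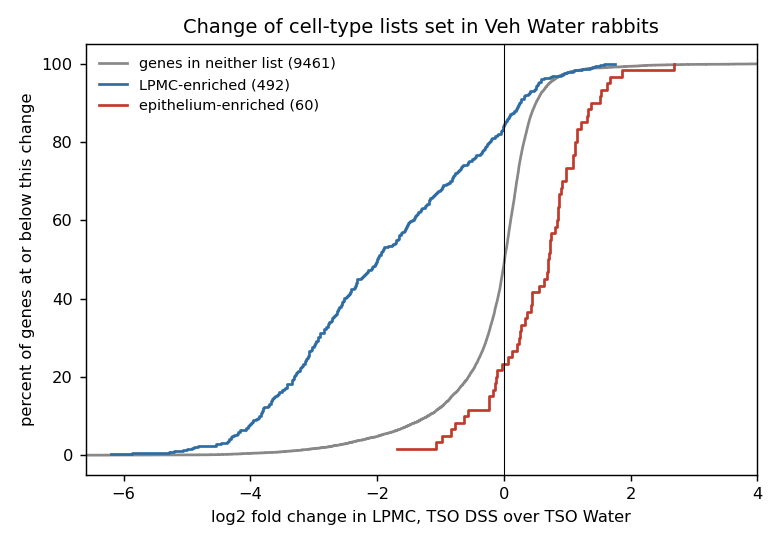
Lines give the percent of genes at or below each log2 fold change in LPMC, TSO DSS over TSO Water, for 492 LPMC-enriched genes (blue), 60 epithelium-enriched genes (red) and the 9461 genes in neither list (grey). The blue line is shifted to the left, with a median of -2.0, and the red line to the right, with a median of 0.71.

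Mitochondrial genes, whose share of reads is often taken as a sign of cell and RNA quality, took 12.8%, 18.8% and 9.06% of the reads in TSO DSS 1, 2 and 3 and 17.8%, 13.7% and 15.1% in TSO Water 1, 2 and 3. The means were 13.5% ± 4.91 and 15.6% ± 2.10 (SD, n = 3), and the groups overlapped (exact permutation test, two-sided p = 0.5, where 3 against 3 rabbits allow no p below 0.1). Without the mitochondrial gene that is listed at 0 in TSO DSS 2, the shares came to 9.41%, 18.8% and 6.79% for TSO DSS and to 12.9%, 10.2% and 11.1% for TSO Water. The means were then 11.7% ± 6.31 and 11.4% ± 1.37 (SD, n = 3), so that the difference turned from -2.01 to 0.285 percentage points (exact permutation test, two-sided p = 1), an alternative chosen after seeing the data. Within TSO DSS, the lowest shares were under both counts those of TSO DSS 1 and TSO DSS 3, the TSO DSS libraries with the fewest reads.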

How the data were processed

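RNA of LPMC and IEC from 12 rabbits was sequenced by polyA-selected, unstranded RNAseq. The values deposited by the authors are a normalized signal, equal to the reads of a gene multiplied by 1 factor for each library, and each table has its own scaling. The authors' processing notes name the build OryCun 2.0; the aligner and the counter are not given in the sources used here. The authors also deposited their own log2 ratio and p-values per gene, which were not used. Dividing each column by its smallest step gave back whole reads, and 100% of the values under 1000 were within 0.1 of a whole number. Intervals cover counting error only.

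Recovered reads of the libraries of a comparison were scaled together by TMM (edgeR 4.0.16). Genes with a mean of at least 10 scaled reads were tested by limma 3.58.1 (trend) in R 4.3.3 on log2(scaled reads + 1), without a replicate block. Interaction terms were called by the adjusted p-value alone. Each library of a group came from a separate rabbit. IEC and LPMC libraries of the same group and number were taken to come from the same rabbit. Their deviations from the group means correlated between -0.14 and 0.21 across 9692 genes, so that the values do not show this pairing. The quasi-likelihood test of edgeR on the recovered reads called 410 genes in the first comparison. Only the limma fit of the first comparison was checked on simulated reads, which had the same spread for all genes and no deviating library. The other tests were not checked in this way. Rooms were taken from a supplement of the study. A name table of 38822 genes (mOryCun1.1) matched 0 of 17318 identifiers. The rule named the 2 largest rises and 2 largest falls among called genes without overlap and with at least 30 reads in each library of the higher group; identifiers with the same reads were named once, which was decided after their values were seen. The comparison and the lists were chosen with earlier results of these data known.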

Additional observations from a re-analysis of the deposited data

Results flagged for a closer look

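The effect of DSS differed between LPMC and IEC of TSO rabbits for 347 genes by the interaction term of limma over the 12 libraries. The median change of LPMC-enriched genes, relative to the TSO Water mean of the cell type, was below 0 in every LPMC library and above 0 in every IEC library of the TSO DSS rabbits. Single genes did not all follow, as 78 of 492 were above 0 in LPMC and 56 of 332 below 0 in IEC. The medians were -1.90, -1.84 and -1.89 in LPMC of TSO DSS 1, 2 and 3, and 1.41, 2.35 and 0.46 in IEC of TSO DSS 1, 2 and 3, on the log2 scale. In IEC, 68 of the 332 genes passed the filter on low levels through the TSO DSS libraries alone, and without the filter the medians were 0.93, 1.83 and 0.33 over 519 genes. This difference of the list was not tested. Groups of 3 rabbits were too small for a test of single outlying libraries.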

How the results depend on the processing

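In TSO rabbits, 413 LPMC genes were called, and the count was 1119 at the unadjusted p-value, 732 with the spread of all 12 LPMC libraries, 18 in room A rabbits only, 860 with the likelihood ratio test of edgeR, 840 with DESeq2 and 18 to 1083 with 1 library left out. With TSO DSS 3 and TSO Water 2 left out together, an alternative chosen after seeing the data, it was 0. Pseudocounts of 0.1 and 10, no filter on low genes, both other scalings, no mitochondrial genes, thinned reads and the quasi-likelihood test gave 345 to 511, and genes with the same reads counted once, also chosen after seeing the data, 411. The median of the 396 lower genes ranged from -2.25 to -2.96 over all of these, but these genes were chosen on all 6 libraries. The replicate block gave 256, of which 226 were among the 413, and the calls of ENSOCUG00000018026 and ENSOCUG00000018769 were not among them (limma, adjusted p = 0.0919 and 0.107). Deviations of same-numbered libraries correlated at -0.086, 0.14 and 0.24, and 1 of the 3 TSO DSS libraries correlated best with its own number, so that the numbers do not pair these rabbits.

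For DSS without ova in LPMC, 3 genes became 500 at the unadjusted p-value, 13 with a pseudocount of 10, 13 without the filter, 7 with median-of-ratios scaling, 7 without mitochondrial genes, 0 with all 12 LPMC libraries, 0 with the replicate block, 13 in room A, 218 with the likelihood ratio test, 236 with DESeq2 and 0 to 31 with 1 library left out. Of the calls, 59.2% were lower at the unadjusted p-value, against 39.9% with the likelihood ratio test and 41.9% with DESeq2. For IEC of TSO rabbits, 213 genes became 661, 10 (all 12 IEC libraries), 102 (replicate block), 109 (room A), 444 (likelihood ratio), 457 (DESeq2) and 23 to 188 with 1 library left out. The interaction of TSO and DSS in LPMC, with 0 genes, became 716 at the unadjusted p-value, 1 with a pseudocount of 0.1, 52 with the likelihood ratio test, 68 with DESeq2 and 0 to 32 with 1 library left out. That of cell type and DSS, with 347 genes, became 1843, 198 in room A, 786, 886 and 177 to 497 with 1 library left out. The median of epithelium-enriched genes, 0.71, was 0.30 to 1.03 with 1 library left out 1.21 at a list threshold of 5 and 0.69 without the filter, chosen after seeing the data. The median of LPMC-enriched genes was -2.57 at a list threshold of 5 and -2.12 to -1.78 with 1 library left out. The difference in the summed level of LPMC-enriched genes was -6106 RPM, -22540 to 23640 with 1 library left out and -16800 without ENSOCUG00000027219, both chosen after seeing the data. The difference in mitochondrial share was -2.01 percentage points and ranged from -4.63 to 0.232 with 1 library left out, above 0 without TSO DSS 3. It was 0.285 without the mitochondrial gene listed at 0 in TSO DSS 2, also chosen after seeing the data. The cause of these changes was not tested.

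The depth of TSO DSS 3 (3685531 reads) limits what can be seen of low genes, and 3 rabbits a group limit every call.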
